A study of Mus musculus with 96 samples.

Results

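After serum was added to starved mouse embryonic fibroblasts, the RNA of matrix metalloproteinases and their inhibitors followed several separate courses. The genes described here are 10 of the 15895 genes in the deposited table: the stromelysins Mmp3, Mmp10 and Mmp11, the collagenase Mmp13, the gelatinases Mmp2 and Mmp9, the membrane-type enzyme Mmp14, and the inhibitors Timp1, Timp2 and Timp3. They were picked by name, and measured values entered that choice, since the signal of Mmp10 after serum against starved cells is among the largest increases in these data. Their levels against starved cells are therefore given as a description, without a test.

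Primary fibroblasts of CF-1 mouse embryos (embryonic day 13) were kept for 36 h in 0.5% fetal calf serum, and serum was brought to 20% at 0 h. The starved group holds the libraries taken at -1 h and 0 h, and the libraries after serum went through the same starvation, so no group here was left unstarved. Cycle 1 has 63 libraries in use, up to 38 h after serum, and Cycle 2 has 32, up to 27 h, each 1 library per time. For 1 further library of Cycle 1 no column of values could be matched by name. Nothing in the sources used here says that libraries came from separate cultures, so the p-values below measure only the spread between these samples, which may be technical.

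Matrix metalloproteinases are zinc-dependent endopeptidases that are made as inactive precursors and, once activated, cleave collagens, proteoglycans and other proteins of the extracellular matrix. Tissue inhibitors of metalloproteinases, the Timps, bind the active enzymes and block them, and Timp2 also helps Mmp14 activate the precursor of Mmp2 at the cell surface. Fibroblasts are a main source of these proteins, and several of the genes are known to respond to growth factors through AP-1 sites close to the transcription start.

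Values are a signal that the authors scaled to the same nominal total in each library, with a depth of 5076476 to 14479174 reads per library (median 10846412) recovered from the smallest steps of the values. The 8 fibroblast marker genes were all present, with a summed signal of 477266 to 495614 in starved Cycle 1 cells and 341565 to 361125 in starved Cycle 2 cells. After serum the sum was lower, with a median of 190773 in Cycle 1 and 199969 in Cycle 2 from 1 h on. In the F test against starved cells given below, 4 of the 8 genes were called lower and 1 higher, against 19.6% and 8.74% of all genes. Of 6 endothelial markers 4 were called lower, against the same 19.6%. Of 9 macrophage and other leukocyte markers 8 were in the table, and their summed signal was 1126 to 1183 in starved Cycle 1 cells and 3445 to 3467 in starved Cycle 2 cells. The library of Cycle 2 at 0.5 h stood apart, with a leukocyte sum of 705.3 against 2086 to 4841 in the later libraries of that Cycle. The 24.5 h library of Cycle 1 deviated from the mean of its neighbours by an SD of 0.689 on the log2 scale over all genes, the highest of any library. Neither of these 2 libraries entered a test. The 20 h library of Cycle 2 was apart for several members, and results that rest on it are given with and without it.

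Mmp10, Mmp3 and Mmp13 share a stretch of chromosome 9. In the NCBIM37 (mm9) annotation, 10 Mmp genes lie between positions 7272514 and 7699585 of chromosome 9, a span of 427.1 kb, and 8 of them are in the table. Mmp13 occupies 7272514 to 7283333, Mmp3 7445822 to 7455972 and Mmp10 7502352 to 7510238, all on the forward strand. The other members lie elsewhere, Mmp9 on chromosome 2 (164766280 to 164781350), Mmp2 on chromosome 8 (95351227 to 95377316), Mmp11 and Timp3 on chromosome 10, Timp2 on chromosome 11 and Mmp14 on chromosome 14. RefSeq promoters (GRCm38.p6) were found for 8 of the 10 members, and Mmp2 and Mmp9 had no entry. The 250 bases before the start are printed for the 3 members of the chromosome 9 group, which had courses of a like shape, and for Timp1, which was high early and holds no such match. Capitals mark the AP-1 core, searched as TGANTCA on both strands.
Mmp10 (chr9:7502092-7502341, forward strand): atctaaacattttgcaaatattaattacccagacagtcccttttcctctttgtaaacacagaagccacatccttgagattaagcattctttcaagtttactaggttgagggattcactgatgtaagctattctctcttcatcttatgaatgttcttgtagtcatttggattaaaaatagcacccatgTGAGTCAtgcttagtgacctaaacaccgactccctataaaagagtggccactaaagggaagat
Mmp3 (chr9:7445572-7445821, forward strand): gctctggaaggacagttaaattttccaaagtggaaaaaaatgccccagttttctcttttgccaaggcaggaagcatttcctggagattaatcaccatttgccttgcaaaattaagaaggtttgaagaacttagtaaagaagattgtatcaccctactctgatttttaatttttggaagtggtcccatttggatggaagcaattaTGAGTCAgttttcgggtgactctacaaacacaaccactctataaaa
Mmp13 (chr9:7272264-7272513, forward strand): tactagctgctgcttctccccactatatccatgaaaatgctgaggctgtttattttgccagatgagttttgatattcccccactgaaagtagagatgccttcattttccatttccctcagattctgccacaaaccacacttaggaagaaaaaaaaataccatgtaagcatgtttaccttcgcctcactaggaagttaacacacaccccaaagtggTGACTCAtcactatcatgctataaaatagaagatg
Timp1 (chrX:20869916-20870165, forward strand): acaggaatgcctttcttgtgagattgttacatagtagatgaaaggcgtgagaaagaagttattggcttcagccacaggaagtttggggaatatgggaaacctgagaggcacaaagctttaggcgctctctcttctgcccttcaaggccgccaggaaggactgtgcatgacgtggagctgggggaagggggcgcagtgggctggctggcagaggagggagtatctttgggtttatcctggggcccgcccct

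The AP-1 core was present in 3 of the 8 promoters, those of Mmp10, Mmp3 and Mmp13, and in 6.75% of 32851 mouse promoters of the same length. Its first base was 63 bases before the start in Mmp10, 46 in Mmp3 and 35 in Mmp13. The letters TATAAA on the sense strand were in the same 3 promoters, against 7.59% of all promoters. The letters AGGAAG, the core of the PEA3 element to which ETS factors bind, were found on either strand in 5 of the 8 (Mmp3, Mmp13, Mmp14, Timp1 and Timp3) and in 29.5% of all. In the capitals above the middle base differs, with TGAGTCA in Mmp10 and Mmp3 and TGACTCA in Mmp13, which are reverse complements of each other. Of 14 other Mmp and Timp genes with a promoter entry, 5 also held the AP-1 core. These were Mmp1a, Mmp1b, Mmp7, Mmp12 and Mmp20, all in the same stretch of chromosome 9. The match of Mmp20 read TGAATCA, and for Mmp7 and Mmp12 not every promoter entry held a match. Of these 5 genes, Mmp12 was not called against starved cells, and Mmp1b was called only with Cycle as a block. Mmp1a was called at values of at most 5.20, and the call depended on the settings, as given below. Mmp7 and Mmp20 are not in the table. A match describes letters in this window and was not tested for binding, and its relation to the courses was not tested.

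Mmp10, stromelysin-2, which cleaves proteoglycans and activates other metalloproteinase precursors, was close to background in starved cells. Its signal was 9.02 at -1 h and 4.56 at 0 h in Cycle 1, and 21.9 and 19.8 in Cycle 2. In Cycle 1 these values stand for 6 and 5 reads (exact Poisson 95% intervals 2.20 to 13.1 and 1.62 to 11.7), and in Cycle 2 for 23 and 24 reads, so the starved level is the least certain part of every fold of this gene. The intervals cover counting error only. In Cycle 1 the signal was 16.7 (1 h), 201 (3 h), 935 (5 h) and 2310 (8 h), and later 1061 (12 h), 225 (18 h), 31.6 (24 h) and 7.54 (38 h). In Cycle 2 it was 13.8 (0.5 h), 18.7 (1 h), 492 (3 h), 1828 (5 h), 2524 (8 h), 1186 (12 h), 396 (18 h), 103 (24 h) and 58.7 (27 h). Both Cycles had their highest library at 8 h, at 340.3-fold the starved mean in Cycle 1 and 121-fold in Cycle 2. The peaks differ far less in level than in fold, because the starved mean of Cycle 2 was 3.07 times that of Cycle 1. The signal was above 0.5 of its highest value from 5.5 h to 11 h in Cycle 1 and from 5 h to 11 h in Cycle 2.

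Mmp3, stromelysin-1, which degrades several matrix proteins and activates the precursors of collagenases, had a broader course. Its signal was 690 and 615 in the starved libraries of Cycle 1 and 2302 and 2281 in those of Cycle 2. The highest library was 5511 at 7.5 h in Cycle 1, an 8.44-fold level, and 10700 at 8 h in Cycle 2, a 4.67-fold level. The last libraries were at 245 at 38 h in Cycle 1, below its starved libraries, and at 2353 at 27 h in Cycle 2, close to its own. Mmp3 was higher in Cycle 2 at 29 of 29 shared hours after serum, by a median of 2.32 times.

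Mmp13, the main interstitial collagenase of rodents, was above 0.5 of its highest value from 5 to 12 h in Cycle 1 and from 3 to 14 h in Cycle 2, and ended far under its starved level in Cycle 1. The starved libraries were at 428 and 399 in Cycle 1 and at 895 and 831 in Cycle 2. At 8 h the signal was 4681 in Cycle 1 and 6997 in Cycle 2, or 11.3-fold and 8.11-fold. In Cycle 1 the medians of the libraries were 1519 from 11 to 18 h, 209 from 19 to 27 h, 78.1 from 28 to 33 h and 19.5 from 34 to 38 h. At 38 h the signal was 13.2, or 0.0319-fold the starved mean. In Cycle 2 it was 394 at 27 h, a fold of 0.457, against 104 in Cycle 1 at the same hour.

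Mmp9, the gelatinase that cleaves denatured and type IV collagen, had its highest library earlier than the chromosome 9 members in each Cycle. In Cycle 2 the gap was small, with 717 at 6 h and 701 at 8 h. There the first hour at 0.5 of the highest value was 3 h for Mmp9 and Mmp13 and 2.5 h for Mmp3. The starved libraries of Mmp9 were at 179 and 187 in Cycle 1 and at 69.6 and 84.9 in Cycle 2. The highest library was 1448 at 6.5 h in Cycle 1 and 717 at 6 h in Cycle 2, or 7.92-fold and 9.28-fold. Mmp9 was the member whose signal was lower in Cycle 2 at every one of the 29 shared hours, with a median ratio of 0.641. Macrophages also make Mmp9, and the summed leukocyte markers were higher in Cycle 2, the Cycle in which Mmp9 was lower. In the 0.5 h library of Cycle 2, where the leukocyte sum was 705.3, Mmp9 was at 93.2 against a starved mean of 77.3. The part of those cells in the signal was not tested, and in these bulk samples a lower signal from fewer cells of a type and from less RNA per cell cannot be told apart.

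**Figure D1:**
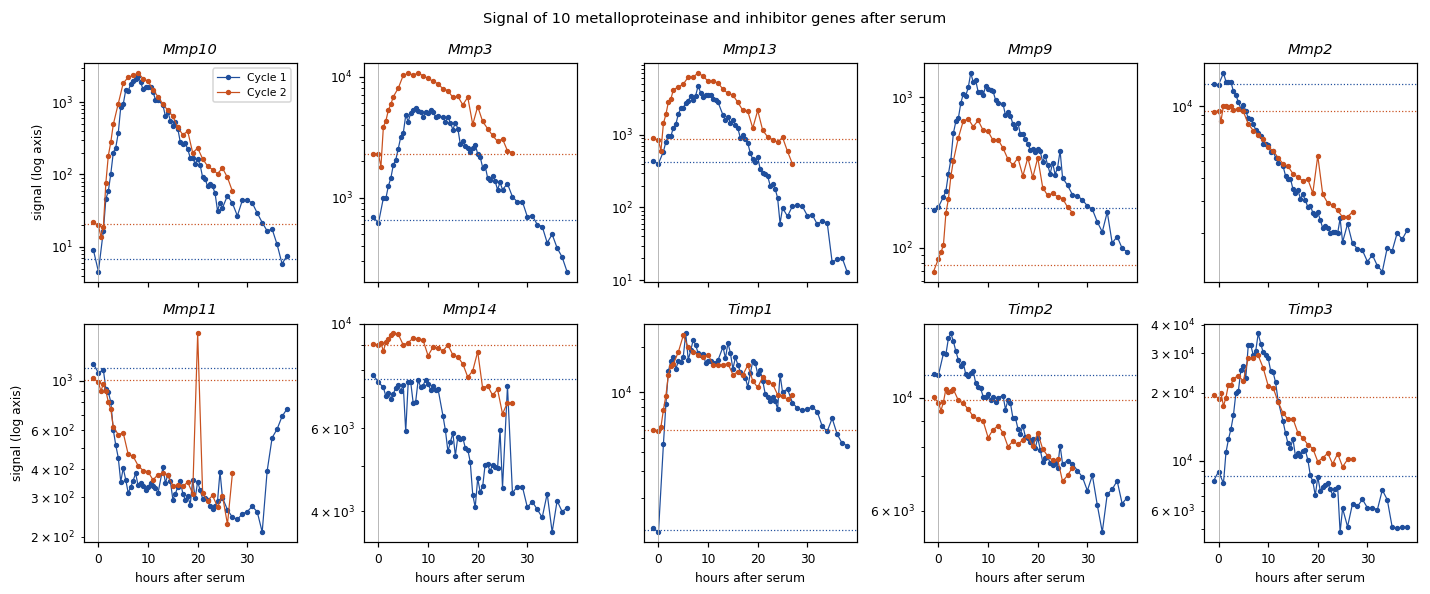
Signal of each of the 10 genes (log axis) against hours after serum in Cycle 1 (blue) and Cycle 2 (orange), 1 point per library, with dotted lines at the mean of the 2 starved libraries. Mmp10, Mmp3, Mmp13 and Mmp9 peak between 6 and 8 h, Mmp2 is lower in each later window up to 33 h, and the 20 h library of Cycle 2 stands out for Mmp11 at 1624.

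Timp1, a soluble inhibitor of most secreted metalloproteinases, was at 0.5 of its highest value by 2 h in both Cycles, against 5.5 h and 5 h for Mmp10. Its starved libraries were at 1249 and 1181 in Cycle 1 and at 5606 and 5565 in Cycle 2, a ratio of 4.60 between the Cycles. At 1 h the signal was 4524 in Cycle 1 and 7653 in Cycle 2, and by 2 h that gap was gone, at 13792 and 13070. Cycle 2 was higher at 12 of 29 shared hours after serum, with a median ratio of 0.981. The highest library was 24505 at 5.5 h in Cycle 1 and 23786 at 5 h in Cycle 2, so the folds of 20.2 and 4.26 differ mainly through the starved level. Every one of the 61 libraries after serum in Cycle 1 was above 2-fold, and the last, at 38 h, was still at 3.64-fold. In Cycle 2 the last library, at 27 h, was at 1.72-fold.

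Timp3, the inhibitor that binds to the matrix and also blocks several Adam proteases, had its highest library at 8 h in both Cycles, as Mmp10 and Mmp13 did. The starved libraries were at 8131 and 8944 in Cycle 1 and at 19649 and 18856 in Cycle 2. At 8 h the signal was 36634 and 29274, or 4.29-fold and 1.52-fold. From 19 to 27 h the median was 7461 in Cycle 1, at 0.874-fold, and the last library of Cycle 2 was at 10170, or 0.528-fold. No library of Cycle 2 was above 2-fold, against 18 of 61 in Cycle 1.

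Mmp2, the gelatinase that is activated at the cell surface, stayed near its starved level from 1 to 3 h and was lower in each later window up to 33 h. Of 8 fibroblast markers 4 were called lower too and 1 higher, and of 6 endothelial markers 4 were called lower. Of all genes 19.6% were called lower and 8.74% higher. The part of these cell types in the values of Mmp2 and Mmp11 was not tested. The starved libraries of Mmp2 were at 13296 and 13128 in Cycle 1 and at 9311 and 9447 in Cycle 2. The medians in Cycle 1 were 13661 from 1 to 3 h, 7968 from 4 to 10 h, 3740 from 11 to 18 h, 2129 from 19 to 27 h and 1454 from 28 to 33 h. In Cycle 2 they were 10040, 7357, 4458 and 2839 over the first 4 of these windows. The lowest library was at 0.0928-fold the starved mean at 33 h in Cycle 1 and at 0.262-fold at 25 h in Cycle 2. The 20 h library of Cycle 2 held 5333 against 3320 at 19 h and 3269 at 21 h.

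Mmp11, a stromelysin activated inside the cell by furin, was low within a few hours and stayed low for a day. Its starved libraries were at 1187 and 1082 in Cycle 1 and at 1023 and 983 in Cycle 2. The medians of Cycle 1 were 889 from 1 to 3 h and 348 from 4 to 10 h, and those of Cycle 2 were 801 and 457. In Cycle 1 the signal was lowest at 33 h, at 210, and was 746 at 38 h. The 20 h library of Cycle 2 was at 1624, a log2 difference of 2.37 from the mean of its neighbours, and without it no library of Cycle 2 after serum exceeded the starved mean, the highest log2 fold being -0.06.

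Mmp14 and Timp2, which act together on the precursor of Mmp2, had the narrowest range of folds, 0.472 to 1.06 for Mmp14 and 0.490 to 1.20 for Timp2 over both Cycles. Mmp14 was between 5911 and 7620 from 4 to 10 h in Cycle 1, against 7772 and 7526 in starved cells, and between 8562 and 9508 in Cycle 2, against 9073 and 9006. Its median from 34 to 38 h was 4065 in Cycle 1. Timp2 had starved values of 11113 and 11082 in Cycle 1 and 10027 and 9771 in Cycle 2. It was 6358 at 38 h in Cycle 1, or 0.573-fold, and 7286 at 27 h in Cycle 2, or 0.736-fold.

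The half-hourly libraries of Cycle 1 give a measure of the spread around these courses. Over 42 such libraries the SD of a library from the mean of its neighbours, on the log2 scale, was 0.036 for Timp2 and 0.061 for Mmp2, the smallest of the members, and 0.224 for Mmp10, the largest. For Mmp3, Mmp9, Mmp11, Mmp13, Mmp14, Timp1 and Timp3 it lay between 0.091 and 0.172. The 24.5 h library departed from its neighbours by -0.93 for Mmp13, -0.51 for Timp3, 0.57 for Timp1 and 0.48 for Mmp9.

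The question of which members changed from one phase to the next was put to differences between windows after serum, which hold no starved library. The starved values stayed in the same fit, however, so they enter its SEs and p-values. Hours sampled in both Cycles were averaged on the log2(signal + 1) scale within 4 windows, giving 1 value per window and Cycle, and consecutive windows were compared with limma over all genes. A gene was called at an adjusted p under 0.05 and a log2 difference above 1 in size. From 1 to 3 h to 4 to 10 h, 3.45% of all genes were called higher and 3.59% lower. Among the 9 members tested, 0 were higher and 1 was lower, Mmp11, which fell by 1.01 on the log2 scale (SE 0.183, limma adjusted p = 0.0192, lower in 2 of 2 Cycles). With a pseudocount of 10 its difference was -0.99 and it was no longer called. Over all genes 4968 had an unadjusted p under 0.05, and edgeR on the recovered reads called the same number of members in each direction. Mmp10 was left out of this count because its rise chose it, and its log2 difference was 4.33 in Cycle 1 and 3.86 in Cycle 2.

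With Cycle as a block the picture of the same comparison was wider, with 3 members higher and 1 lower, against 4.66% and 5.61% of all genes. Mmp9 was higher by 1.69 in Cycle 1 and 1.58 in Cycle 2, with a limma adjusted p = 0.0739 without the block and 0.00661 with it. Mmp13 was higher by 1.76 and 1.20 (adjusted p = 0.283 and, with the block, 0.0216, limma). Mmp3 was higher by 1.73 and 0.95 (adjusted p = 0.343 and, with the block, 0.0217, limma). Each of these 3 genes kept the same order of the Cycles at all 29 shared hours. Timp1 differed by 0.72 and 0.69 and Timp3 by 1.28 and 0.32 in the Cycles, with limma adjusted p = 0.46 and 0.242, and neither was called with the block. The SE of Timp1, 0.593 without the block, includes the spread of its starved values. Its log2 gap between the Cycles was 2.20 in starved cells, against a median of -0.03 after serum. Mmp2 differed by -0.78 and -0.39 (limma adjusted p = 0.174), Timp2 by -0.22 and -0.15 and Mmp14 by 0.05 and -0.01.

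From 4 to 10 h to 11 to 18 h, 0.0377% of all genes were called higher and 0.101% lower by limma, and 0 of 9 members tested were called. With the block 0.535% and 1.11% of all genes were called, and again 0 members, as by edgeR. Over all genes 2365 had an unadjusted p under 0.05. The largest differences among these members were -1.02 and -0.74 for Mmp2 and -1.07 and -0.75 for Timp3 in Cycles 1 and 2. From 11 to 18 h to 19 to 27 h, 0% of all genes were called higher and 0% lower by limma, 502 had an unadjusted p under 0.05 and edgeR called 0, so 0 of 10 members were called. With the block it was also 0% of all genes in each direction, at 1080 with an unadjusted p under 0.05. The values were nevertheless large for 2 of them. Mmp10 was lower by a log2 difference of -3.08 in Cycle 1 and -2.44 in Cycle 2 (limma adjusted p = 0.842, and 0.149 with the block). Mmp13 was lower by -3.02 and -1.92 (limma adjusted p = 1, and 0.149 with the block). Neither difference passed the threshold.

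**Figure D2:**
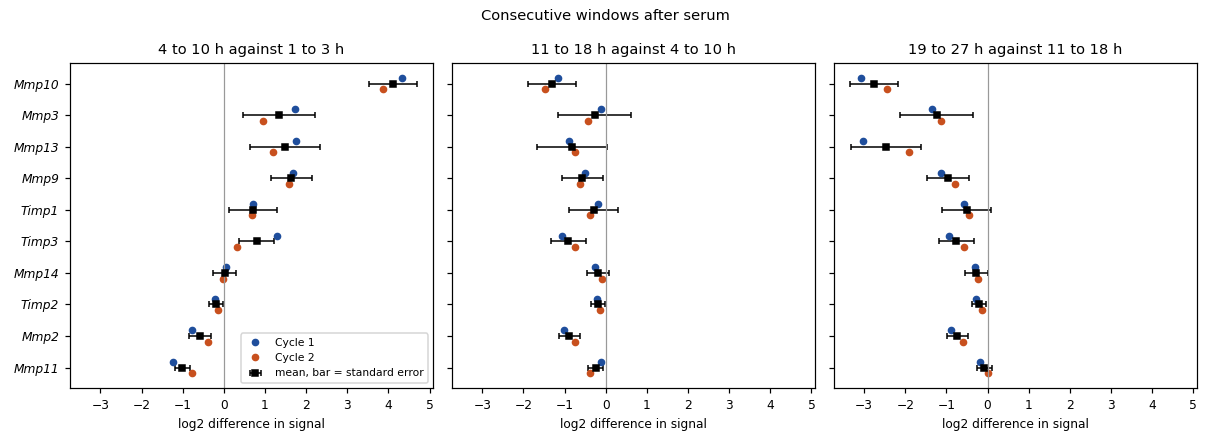
Log2 difference in signal between consecutive windows for the 10 genes, with Cycle 1 in blue, Cycle 2 in orange and the mean with its limma standard error (no block) in black. In 4 to 10 h against 1 to 3 h the differences run from 4.10 for Mmp10 to -1.01 for Mmp11, and in 19 to 27 h against 11 to 18 h Mmp10 and Mmp13 are at -2.76 and -2.47.

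For comparison, the F test of all 4 windows against starved cells called 8.74% of all genes higher and 19.6% lower, and placed Mmp10, Mmp9 and Timp1 among the higher and Mmp2 and Mmp11 among the lower. That contrast helped choose the members, so nothing is read from these counts. With the block, 6 members were higher and 2 lower, against 10.5% and 25% of all genes. The median of all genes lay at -0.26, -0.21, -0.12 and -0.16 in the 4 windows against starved cells, and between -0.07 and -0.03 with TMM scaling.

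Levels can be compared between genes only per length of exon. On that scale the 3 Timps held 38.8% of the summed signal per kb of the 10 genes in starved Cycle 1 cells and 56.6% in starved Cycle 2 cells. At 8 h they held 70.2% in Cycle 1 and 61.4% in Cycle 2, and at 27 h 80.1% and 72.9%. Timp1 alone took 10.1% in starved Cycle 1 cells and 51.8% at 8 h, while Mmp2 went from 32.1% to 6.01%. In Cycle 2 the shares of Timp1 were 31.8% and 47.3% and those of Mmp2 15.6% and 5.46%. Mmp10, despite its fold, held 3.43% at 8 h in Cycle 1 and 3.48% in Cycle 2, less than Mmp3 at 7.37% and 14.1%.

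**Figure D3:**
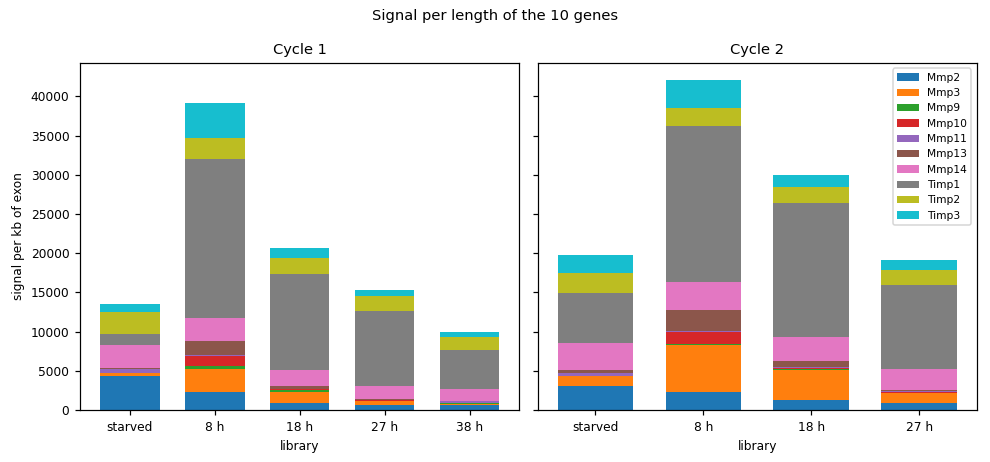
Stacked bars of the signal per kb of exon of the 10 genes in starved cells and at 8, 18, 27 and, for Cycle 1, 38 h after serum. Timp1 forms the largest part of every bar after serum, from 47.3% to 62.5%.

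The courses were compared with those of 11882 genes of a mean signal of at least 20 by the correlation of log2 values over the 63 libraries of Cycle 1 and the 32 of Cycle 2. These points share their libraries and the order of time, so the values describe likeness only. Mmp10 was closest to Serpinb2, an inhibitor of plasminogen activators, with a mean r of 0.982 over the Cycles, and then to Procr, a receptor of protein C (0.973), and to Mmp9 (0.971). Mmp3 was closest to Mmp10 (0.953), and Mmp13 to Mmp3 (0.940). Among the falling courses, Mmp2 was closest to Cpxm1 (0.993), and Timp2 to Apod, Mmp2 and Podn (0.971 each). Timp1 was closest to Cgref1 (0.969) and Timp3 to Pdpn, the mucin-like protein podoplanin (0.968). Mmp11 was closest to Steap3 (0.926), a metal reductase, and Mmp14 to Thbs2, thrombospondin-2 (0.904). Timp3 went with Mmp10 at r = 0.880 in Cycle 1 but at 0.457 in Cycle 2.

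The other members of the family were put to the F test of all 4 windows against starved cells. For these genes and the lists that follow, each adjusted p is that of this F test over the 4 windows together. The log2 change and SE are those of the window of largest change, which was not tested alone. Of 17 other Mmp and Timp genes 14 were in the table, and the limma F test against starved cells called 1 higher and 4 lower, against 8.74% and 19.6% of all genes. With the block it called 2 higher and 6 lower, against 10.5% and 25%. Mmp19, a secreted enzyme of wide tissue distribution, was at 1242 in starved Cycle 1 cells and 1209 in Cycle 2, as means of 2 libraries. It was first at 1509 at 1 h in Cycle 1 and 2151 at 2 h in Cycle 2, and then averaged 450 and 627 from 19 to 27 h, a log2 change of -1.22 (SE 0.383, limma adjusted p = 0.0352). Mmp15, a membrane-type enzyme, fell by 1.83 (SE 0.411, limma adjusted p = 0.032) from means of 76.0 and 33.4. Mmp28 fell by 1.33 (limma adjusted p = 0.0302) and Mmp27 by 1.78 (limma adjusted p = 0.0359), both from starved means of at most 36.3. The means of Mmp27 from 19 to 27 h, 2.16 and 2.92, are worth 1 to 3 reads, so the size of its change depends on the pseudocount. Both calls were lost with a pseudocount of 10 (-0.88 for Mmp28 and -0.67 for Mmp27) and with edgeR (-1.20 and -1.82). Mmp16, another membrane-type enzyme, had starved values of 271 and 246 in Cycle 1 and 114 and 86.5 in Cycle 2, and window means of 44.8 and 35.5 from 4 to 10 h, with limma adjusted p = 0.0575 and, with the block, 0.0105. Mmp23, which is also a membrane protein, was the other gene called lower with the block, with a log2 change of -1.00.

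Mmp1a was the gene called higher, and it was listed at 0 in all 4 starved libraries and at no more than 5.20 in any library, so no fold is given. Its call was lost with limma with trend and with a pseudocount of 10. Mmp1b, a paralog of Mmp1a, was called with the block, from means of 1.21 and 6.63 to 30.5 and 37.4 from 4 to 10 h (limma adjusted p = 0.0661 and, with the block, 0.0185). In Cycle 1 it had 1 read in each starved library (exact Poisson 95% interval 0.0253 to 5.57). Reads of these paralogs can be split uncertainly, and the annotated end of Mmp1b overlaps that of Mmp12 on the other strand while counting ignored strand, so both are uncertain. Mmp12, the macrophage elastase, was at 159 and 266 in the starved libraries of Cycle 1 and at 370 and 328 in those of Cycle 2, and at 80.3 in the 0.5 h library of Cycle 2, the library with the lowest leukocyte marker sum of its Cycle. It was not called (limma adjusted p = 0.804). Mmp8, the neutrophil collagenase, had starved means of 6.97 and 71.9 and was at 24.9 in the 0.5 h library of Cycle 2. It was higher in Cycle 2 at 29 of 29 shared hours, as were the summed leukocyte markers in starved cells. The part of leukocytes in these levels was not tested. The genes Mmp17, Mmp24, Mmp25 and Timp4 were not called.

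**Figure D4:**
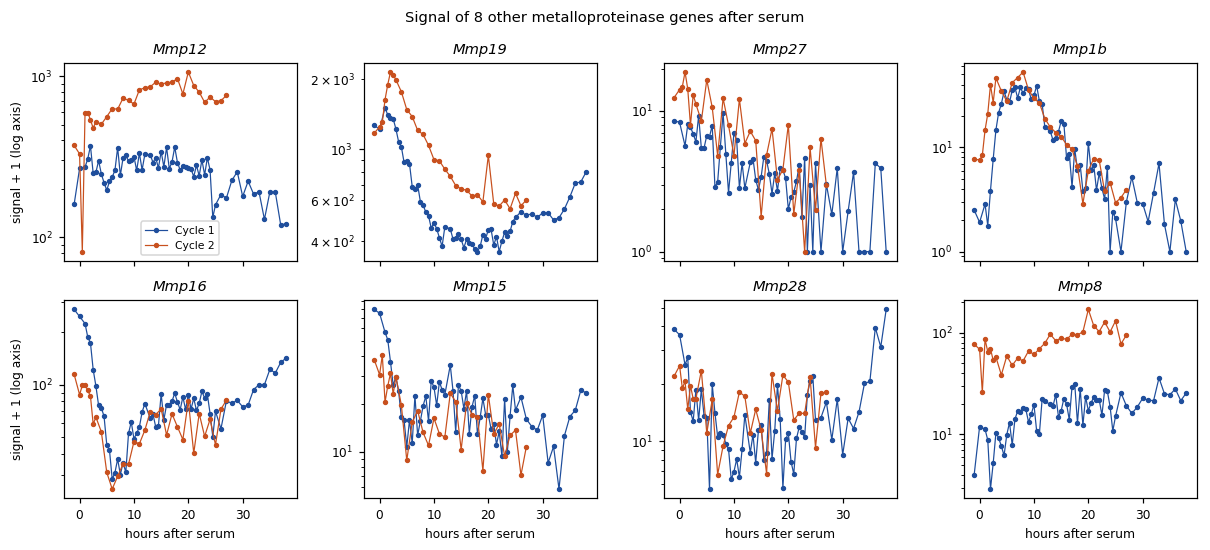
Signal + 1 (log axis) of 8 other metalloproteinase genes against hours after serum, Cycle 1 in blue and Cycle 2 in orange, 1 point per library. Mmp19 peaks at 1 to 2 h and is lower later, Mmp16 is lowest at 6 h in both Cycles, at 27.5 and 24.0, and Mmp12 and Mmp8 run higher in Cycle 2.

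Genes that activate, inhibit or bind these enzymes changed in both directions. Of 17 such genes, all in the table, 6 were called higher and 3 lower by the limma F test, and 7 and 6 with the block, against 8.74% and 19.6% of all genes without it and 10.5% and 25% with it. The plasminogen activation system, which can activate metalloproteinase precursors, held Plaur, the urokinase receptor, with means of 101 and 256 in starved cells and 4991 and 3271 from 4 to 10 h (log2 change 4.63, SE 0.462, limma adjusted p = 0.00366). Plau, urokinase, rose by 1.95 (limma adjusted p = 0.0245), while Plat, the tissue-type activator, fell by 2.44 (limma adjusted p = 0.00144). Tfpi2, a serine protease inhibitor of the matrix, rose by 3.24 (limma adjusted p = 0.0187). Reck, a membrane-anchored inhibitor of metalloproteinases, was at means of 831 and 637 in starved cells and 171 and 225 from 19 to 27 h, and fell by 1.91 (limma adjusted p = 0.00472). Lcn2, a lipocalin that binds Mmp9, fell by 2.77 (limma adjusted p = 0.00304). Cd44, a surface receptor of hyaluronan that holds Mmp9, and Furin, which activates Mmp14 and Mmp11, were also called higher, by 2.94 and 1.12.

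Of 7 Adam sheddases 1 was called higher, against 8.74% of all genes. This was Adam19, with means of 1642 and 2213 in starved cells and 6469 and 5319 from 4 to 10 h (log2 change 1.62, SE 0.198, limma adjusted p = 0.00661). With the block 2 were called higher, the other being Adam8, against 10.5% of all genes. A list of 12 factors that act on metalloproteinase promoters held AP-1 and ETS proteins and Runx2, a Runt-domain factor. Of these 4 were called higher and 5 lower, with and without the block, against 8.74% and 19.6% of all genes without it and 10.5% and 25% with it. Fosl1 rose by 4.45 in the 1 to 3 h window, from means of 52.3 and 183 to 2532 and 1582 (limma F test over the 4 windows, adjusted p = 0.0103). Ets1 rose by 2.82 in the 1 to 3 h window (limma adjusted p = 0.00339) and Etv4 by 2.86 in the 19 to 27 h window (limma adjusted p = 0.0113). Fos fell by 5.27 and Fosb by 4.48 in the 19 to 27 h window (limma adjusted p = 0.00145 and 0.000822), from starved means of 12899 and 7807 for Fos. Junb fell by 1.73 in the 11 to 18 h window (limma adjusted p = 0.00145). Jun and Jund were also lower, and Runx2 higher.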

How the data were processed

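Polyadenylated RNA of starved and serum-treated mouse embryonic fibroblasts was sequenced as single-end 50 base reads, with 12 samples per lane. The authors aligned reads to mm9 with STAR and counted them on exons with HOMER without regard to strand, and the deposited values are a signal scaled to the same nominal total per library. Versions are not given in the sources used here. Of 96 columns 95 were matched to libraries by name, and 1, whose name matches no single library, was left out. Values were whole multiples of 1 read (within 0.1 read) for 94.2% to 96.2% of low values, where 1 read was worth 0.691 to 1.97. The members and gene lists were chosen with earlier results of these data known.

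Window means of log2(signal + 1) were compared with limma 3.58.1 in R 4.3.3 (Benjamini-Hochberg adjustment over 15895 genes), and edgeR 4.0.16 was run on recovered reads. The edgeR fit left out the -1 h library of Cycle 1 and the 18 h library of Cycle 2, so its starved value of Cycle 1 rests on the 0 h library alone. At low values these 2 libraries had 95.7% and 95.1% whole multiples of 1 read, inside the range of all libraries. Counts, summaries and figures were made with pandas 2.3.3, matplotlib 3.10.9, scipy 1.17.1 and numpy 2.4.6 under Python 3.11.15. Deviations of the Cycles from the window means correlated in all 10 pairs of groups (lowest 0.14, median 0.421, over 11882 genes), and on that basis Cycle pairs the samples and the fit with Cycle as a block is given beside each result it changes. On simulated data for 4 to 10 h against 1 to 3 h over 15895 genes, limma recovered 200 of 200 genes changed by 2 on the log2 scale and made 3 false calls. The changed genes were drawn from those of high mean signal, and no lasting difference between the Cycles was simulated. The simulated spread was also smaller than that of most members, whose SEs without the block ran from 0.172 (Timp2) to 0.883 (Mmp3). The recovery therefore does not show the power for the members. Alternatives covered the pseudocount, a filter on low values, scaling, windows, the starved libraries, single libraries and either Cycle. Genes are named by these rules: the 10 members, the other listed Mmp and Timp genes, and the genes of the other lists with the largest called changes in each direction. Others were named after their values were seen. The values of 1 gene of these lists are not reported here.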

Additional observations from a re-analysis of the deposited data

How the results depend on the processing

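Of 360 recomputed values of the members in the 3 comparisons of consecutive windows, 343 kept their direction and call (or, for values with no test, stayed within 1 SD), 9 gained a call, 1 lost it, 2 moved by more than the spread between Cycles and 5 changed sign. Mmp11 in 19 to 27 h against 11 to 18 h was 0.10 with edgeR and 0.01 in Cycle 2 alone. Mmp14 in 4 to 10 h against 1 to 3 h was -0.072 with TMM scaling, -0.050 with edgeR and -0.015 in Cycle 2 alone. For 4 to 10 h against 1 to 3 h, 1119 genes were called, against 700 with a pseudocount of 10, 2135 with each shared hour as a group and 1788 with windows without their outer hours. Of the members 1 was called, against 0 with a pseudocount of 10, where Mmp11 no longer passed the limit of 1, and 4 with the replicate block and with each shared hour as a group. For 11 to 18 h against 4 to 10 h, 22 genes were called, against 35 with a pseudocount of 10, 35 with a mean value of at least 10, 262 with the replicate block and 1056 with each shared hour as a group. For 19 to 27 h against 11 to 18 h, 0 genes were called, against 258 with each shared hour as a group, 3 of them members. Against starved cells 5 members were called, against 4 with edgeR, 6 with limma with trend and 8 with the replicate block or each shared hour as a group. The split of all genes called against starved cells was 1389 higher and 3116 lower, against 1680 and 2432 with TMM scaling and 1714 and 2372 with edgeR. For 4 to 10 h against 1 to 3 h it was 548 and 571, against 431 and 731 with TMM scaling and 426 and 700 with edgeR. Hours within a window follow each other and are not replicates of a condition. With 1 Cycle left out there is no test, and without the 20 h library of Cycle 2, an alternative chosen after seeing the data, as was edgeR, no call of a member changed. Depth limits the starved level of Mmp10, Mmp1a and Mmp1b.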
